A study of Mus musculus with 8 samples.

Results

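The non-clustered cadherins and protocadherins were examined in RNA sequencing of mouse hippocampus with and without Mbd2. Members were taken by gene symbol, as every gene named Cdh or Pcdh followed by a number, with Pcdh11x included, which gave 35 of the 19201 genes counted. The symbols cover 5 type I and 13 type II classical cadherins, 5 other cadherins, 4 delta-1 and 5 delta-2 protocadherins and 3 other protocadherins. The rule reads the symbol alone.

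Cadherins are calcium-dependent adhesion molecules that span the cell membrane and bind cadherins of the next cell. The classical cadherins, of type I and type II, hold adherens junctions and synapses together and are tied to actin by the catenins. Different neurons carry different type II cadherins, and in the hippocampus they help to set which cells connect. The delta-protocadherins adhere more weakly and signal to actin through other partners, and, unlike the clustered protocadherins, each is encoded by a gene of its own. Mbd2 binds methylated CpG sites and recruits a repressive chromatin complex.

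The wild-type group and the Mbd2-/- group each had 4 libraries, both on a C57BL/6 background, from littermates of heterozygous parents at 10 to 12 weeks of age. Each library pooled the hippocampi of 2 mice, so that single animals cannot be seen. Values are normalized counts, that is, reads on a gene scaled by a size factor for each library. A limma fit on log2(normalized count + 1) compared the genotypes for genes whose mean reached 10, and a gene is named as called where its p, adjusted by Benjamini-Hochberg over all of them, was below 0.05. A log2 fold change compares Mbd2-/- with wild-type on that scale and is negative where Mbd2-/- was lower. Of the members, 33 passed this filter, and the only ones below it were Cdh16, with 0 to 3 reads in a library, and Cdh17, with 0 to 2 reads, the cadherins of kidney and of liver and intestine.

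Reads on genes ran from 8439570 to 23790825 in wild-type and from 8087750 to 14020765 in Mbd2-/- libraries. Mbd2 itself had 295, 363, 371 and 354 normalized counts in wild-type replicates 1 to 4 and 244, 239.6, 339 and 217 in Mbd2-/- replicates 1 to 4. The genotypes overlapped, because Mbd2-/- replicate 3 lay above wild-type replicate 1, although the mean was lower (log2 fold change -0.43 ± 0.12 SE, adjusted p = 0.0174 in limma). That call was lost without wild-type replicate 3 (adjusted p = 0.0625), Mbd2-/- replicate 1 (0.0542) or Mbd2-/- replicate 2 (0.0579), and without trend and robust moderation (0.0731). The allele leaves exon 1 intact, so reads over the whole gene check the labels only in part. Marker genes of other tissues and cells also differed between the genotypes. All 14 choroid plexus markers were called higher, with a summed normalized count of 24321 to 26026 in wild-type and 47005 to 53458 in Mbd2-/- libraries. Of 13 thalamus markers 11 were called lower, with sums of 6458 to 6658 and 4431 to 4875. Among the others 7 of 9 astrocyte, 6 of 9 oligodendrocyte, 5 of 7 microglia, 3 of 6 meningeal fibroblast, 2 of 5 mural cell, 2 of 9 endothelium and 1 of 5 CA3 markers were called higher, while 2 of 4 CA1 markers and 1 meningeal marker were called lower. The dentate gyrus, excitatory neuron and striatum lists each had 1 gene lower and 1 higher, and the interneuron list had 3 lower and 4 higher. The only blood marker in the data was Alas2, which was lower, and this list was not scored. In whole hippocampus fewer cells of a type and less RNA per cell cannot be told apart, and the part of these shifts in the values below was not tested.

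Without Mbd2, the members changed in both directions, and the decreases outnumbered the increases. Of the 33 tested members, 11 were called (33.3%), beside 22.0% of all 14504 tested genes. Lower levels were called for Cdh18, Cdh7, Pcdh9, Pcdh1, Cdh23, Pcdh15 and Cdh13, which is 21.2% of the members beside 10.0% of all genes. Higher levels were called for Cdh9, Pcdh20, Cdh15 and Cdh3, 12.1% of the members beside 12.0% of all genes. The mean normalized count of a called member was at most 30.7% lower, in Cdh23, and at most 61.6% higher, in Cdh15. The counts of calls rest in part on single libraries. Without Mbd2-/- replicate 4 the lower calls numbered 14, while the share of all genes called lower went from 10.0% to 17.6%. The higher calls fell to 1 when wild-type replicate 1 or 3 was left out, and to 2 when it was wild-type replicate 4, Mbd2-/- replicate 1 or Mbd2-/- replicate 3, and in these 5 fits 8.14% to 10.7% of all genes were called higher, beside 12.0% with all libraries. On the recovered reads edgeR called 7 members lower and 3 higher, beside 9.67% and 12.2% of all genes (21.9% in all), and DESeq2 called 7 lower and 2 higher of the 31 members to which it gave an adjusted p, beside 9.57% and 11.7% of all genes (21.3% in all).

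**Figure D1:**
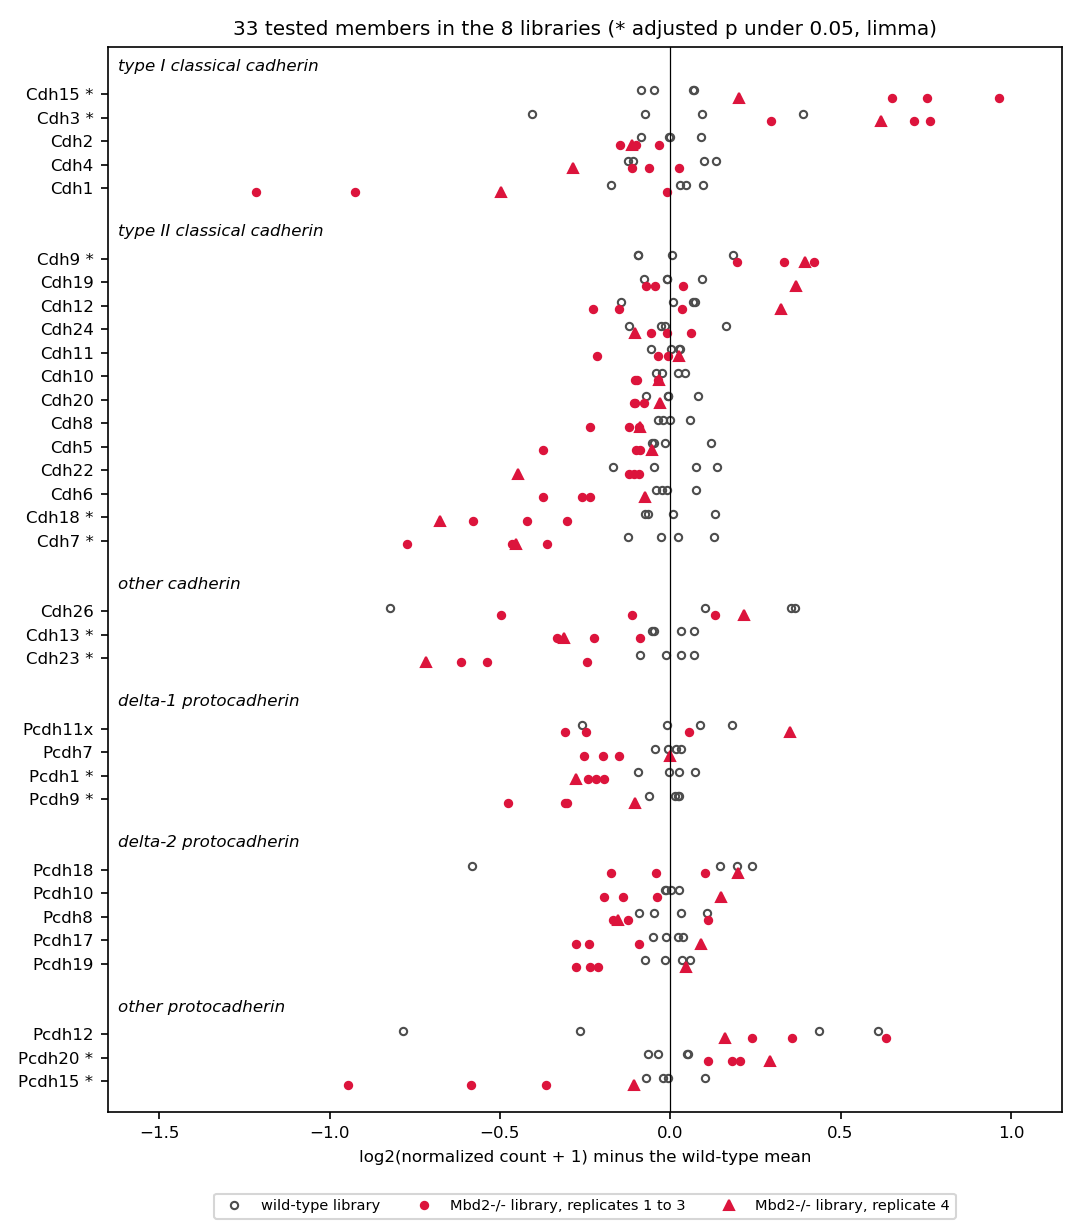
Each tested member is a row and each point a library, placed by its log2(normalized count + 1) minus the mean of the 4 wild-type libraries (open circles wild-type, filled Mbd2-/-, triangle Mbd2-/- replicate 4). The filled points of Cdh18 and Cdh7 lie left of all open ones and those of Cdh9 right of them, while Mbd2-/- replicate 4 lies to the right of the other Mbd2-/- libraries in 18 of the 33 members.

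Most members had a lower mean in Mbd2-/-. A negative log2 fold change was found in 26 of the 33 (78.8%), beside 50.0% of all tested genes, and the median was -0.10 beside -9.1e-05. In 13 members the 4 libraries of one genotype did not overlap with those of the other, 10 of them lower and 3 higher in Mbd2-/- (39.4%, beside 23.6% of all genes, 11.5% lower and 12.1% higher). Of the 11 called members, 10 were in this group, Cdh3 being the exception, beside 2599 of the 3185 called among all tested genes. With the length trend removed 7 members did not overlap (21.2%, beside 19.1% of all genes with a known length). The summed normalized count of all 35 members was 23719 ± 217 (SD, n = 4) in wild-type and 22107 ± 1076 in Mbd2-/- libraries.

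Transcript length moved with these values. The longest annotated transcript of the members had a median of 4565 bases, beside 3185 bases over all tested genes, and the 3475 tested genes within the members' interquartile range of 3702 to 5610 bases were called lower in 14.6% and higher in 5.67%, with 66.1% negative and a median of -0.07. When the trend on length was removed from each library, 5 members were called lower and 4 higher, beside 6.79% and 8.06% of all genes with a known length, and the median was -0.04. Pcdh1, Cdh23 and Cdh13 then missed the threshold and Cdh6 passed it. What sets the slope on length was not tested. Across the 33 members the log2 fold change had a Spearman's rho of -0.17 with transcript length, of -0.51 with the span of the gene from first to last exon and of -0.07 with the level per length. These are descriptions across genes that share the same libraries, and over all 14171 genes with a length the values were -0.46 with length and -0.29 with span.

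Levels per length were compared as reads per kb of the longest transcript and per 1e6 reads on genes (RPKM), a scale that depends on how complete the annotated transcript is. The 3 most abundant members were protocadherins, and each was called. Pcdh9 had 51.2 ± 1.58 RPKM in wild-type and 41.4 ± 4.62 in Mbd2-/- (SD, n = 4), Pcdh1 45.0 ± 2.01 and 37.9 ± 0.909, and Pcdh20 37.1 ± 1.67 and 42.2 ± 2.47. The order of these 3 thus ran Pcdh9, Pcdh1, Pcdh20 in wild-type means, whereas in Mbd2-/- the means of Pcdh20 and Pcdh9 differed by less than the SD of Pcdh9. Next came Pcdh8 with 27.5 ± 1.57 RPKM in wild-type, Cdh11 with 23.0 ± 0.717 and the N-cadherin gene Cdh2 with 19.7 ± 1.08, close to Pcdh7 with 19.3 ± 0.376. Cdh8, Pcdh10, Pcdh17, Pcdh19, Cdh10 and Cdh9 followed, between 18.5 and 11.6 RPKM, with neighbours such as Pcdh10 (16.3 ± 0.289) and Pcdh17 (16.0 ± 0.432) within each other's spread. At the low end were Pcdh18, Cdh15, Cdh3, Cdh26, Cdh23, Cdh1 and Pcdh12, all below 1 RPKM, and in them a library held between 6 and 120 reads.

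**Figure D2:**
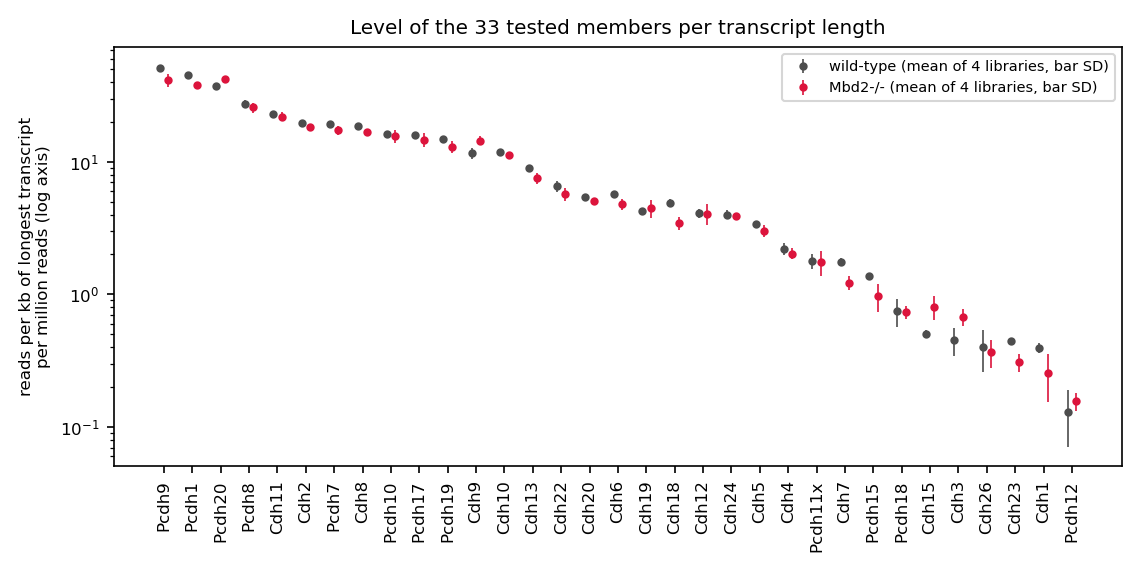
Mean level of each tested member on a log axis, in reads per kb of longest transcript and 1e6 reads on genes, for wild-type (grey) and Mbd2-/- (red) with SD bars over 4 libraries. Pcdh9, Pcdh1 and Pcdh20 stand at the top, with Pcdh20 higher and the other members of this trio lower in Mbd2-/-.

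Among the type II cadherins, Cdh18 was lower and Cdh9 higher without Mbd2, although both lie in the same stretch of chromosome 15. Type II cadherins sort neurons and synapses by which of them a cell carries, and Cdh9 is known from the synapses that dentate granule cells make on CA3 pyramidal cells. Cdh18 (chr15:22478777-23404173 on the plus strand, mm9) had 162, 186, 170.5 and 161 normalized counts in wild-type replicates 1 to 4 and 126, 137, 113 and 106 in Mbd2-/- replicates 1 to 4. Every Mbd2-/- library was below every wild-type library, and the mean was 29.0% lower (log2 fold change -0.49 ± 0.10 SE, adjusted p = 0.00308). Cdh9 (chr15:16707856-16786522 on the plus strand, mm9) had 394, 479, 395 and 423 in wild-type and 564, 531, 483 and 554 in Mbd2-/-. Its genotypes did not overlap either, although Mbd2-/- replicate 3 and wild-type replicate 2 nearly touched, and the mean was 26.2% higher (log2 fold change 0.34 ± 0.077 SE, adjusted p = 0.00568). The ratio of reads on Cdh9 to reads on Cdh18 needs no scaling between libraries, and it was 2.32 to 2.63 in wild-type and 3.87 to 5.25 in Mbd2-/- libraries. The pair was taken for its calls in opposite directions, so the ratio restates these calls and adds no separate evidence.

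The stretch of 10.4 Mb from Cdh6 to Cdh18, chr15:12963955-23404173 (mm9), holds 5 tested genes, all of them members. Cdh6 had 183, 199, 185 and 187 in wild-type and 159.6, 157, 145 and 179 in Mbd2-/-, without overlap, but missed the threshold (log2 fold change -0.24, adjusted p = 0.0644) and was called without Mbd2-/- replicate 4 and with the length trend removed. Cdh10 (512 ± 13.8 and 489 ± 13.2) and Cdh12 (291 ± 20.0 and 293 ± 52.1) were not called, with 95% intervals of the log2 fold change of -0.19 to 0.06 and -0.22 to 0.22. Thus 1 gene of this run was called lower, 1 higher and 3 were not called.

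The same held on chromosome 14, where Pcdh8, Pcdh17, Pcdh20 and Pcdh9 make up 4 of the 7 tested genes in 14.1 Mb, chr14:80166587-94287951 (mm9). Pcdh9, a delta-1 protocadherin of neurons (chr14:93414731-94287951, minus strand), had 2436, 2418, 2297 and 2441 in wild-type and 1936, 1941, 1725 and 2233 in Mbd2-/-. All 4 Mbd2-/- libraries were lower, replicate 4 the least so, and the mean was 18.3% lower (log2 fold change -0.30 ± 0.066 SE, adjusted p = 0.00481). Pcdh20, a protocadherin outside the delta groups (chr14:88864554-88871203, minus strand), had 2391, 2535, 2346 and 2543 in wild-type and 2827, 2783, 2647 and 3003 in Mbd2-/-. Here every Mbd2-/- library was above every wild-type one, with a mean 14.7% higher (log2 fold change 0.20 ± 0.053 SE, adjusted p = 0.0144). The ratio of reads on Pcdh20 to reads on Pcdh9 was 0.982 to 1.05 in wild-type and 1.34 to 1.54 in Mbd2-/-, again for a pair taken for its calls in opposite directions. Pcdh20 lost its call without wild-type replicate 1 (adjusted p = 0.0538), without wild-type replicate 3 (adjusted p = 0.0588) and without the trend and robust moderation (adjusted p = 0.0566), all in limma. Chromosome 8 held called members of both directions as well, Cdh13 lower and Cdh3 and Cdh15 higher among 8 members, in a stretch of 23.8 Mb with 187 tested genes.

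**Figure D3:**
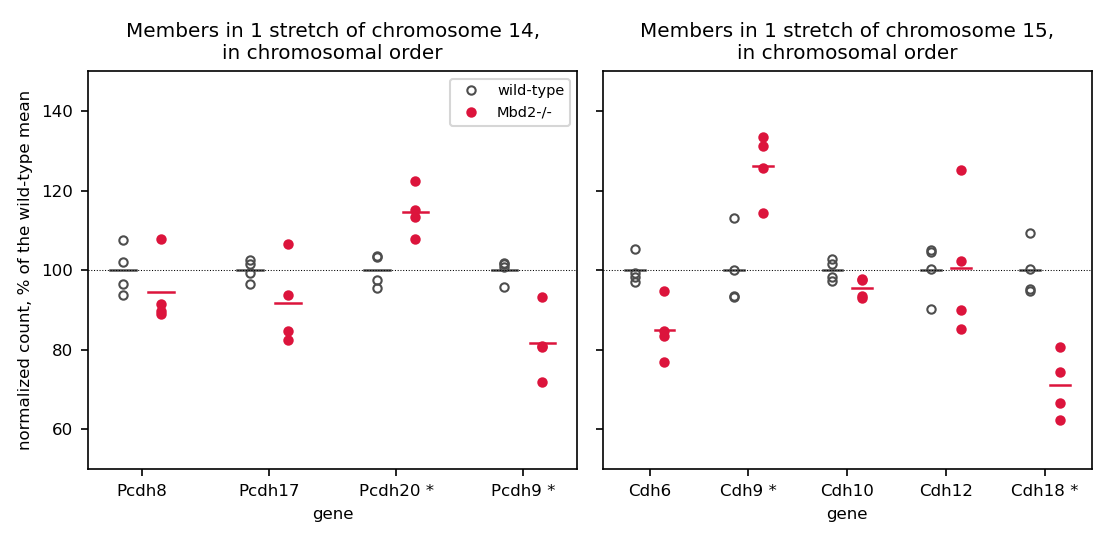
Normalized counts of neighbouring members as a percentage of the wild-type mean, in chromosomal order on chromosomes 14 and 15, with 1 point for each library and a short line at the mean (grey wild-type, red Mbd2-/-, asterisk called by limma). Cdh9 and Pcdh20 lie above all their wild-type libraries, and Cdh18, Cdh6 and Pcdh9 lie below all of theirs.

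A RefSeq transcript start of each of Cdh18, Cdh9, Pcdh20 and Pcdh9 is shown with CpG sites in capitals. These 4 genes were taken as called neighbours of opposite direction in stretches with few other tested genes. Mbd2 recognises methylated CpG, but neither methylation nor Mbd2 binding at these starts was examined here. The RefSeq windows (GRCm38.p6) run from 250 bases before to 50 after a start, each written in the direction of transcription, and each was found letter for letter at 1 place of its mm9 chromosome. There they lie at chr15:22965968-22966267 for Cdh18 (plus strand), chr15:16658420-16658719 for Cdh9 (plus), chr14:88871154-88871453 for Pcdh20 (minus) and chr14:94289839-94290138 for Pcdh9 (minus). The start of the Pcdh20 window is the start of the counted gene, and that of Cdh18 is an annotated transcript start 487 kb inside the gene. The starts of the Cdh9 and Pcdh9 windows lie outside, 49186 and 1937 bases before the gene as annotated on mm9.
Cdh18: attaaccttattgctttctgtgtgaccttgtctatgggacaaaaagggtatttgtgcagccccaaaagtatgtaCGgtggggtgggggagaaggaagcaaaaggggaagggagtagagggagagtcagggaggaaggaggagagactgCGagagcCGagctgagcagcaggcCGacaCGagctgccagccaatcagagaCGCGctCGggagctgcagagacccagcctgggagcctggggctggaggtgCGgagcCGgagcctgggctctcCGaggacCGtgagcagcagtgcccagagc
Cdh9: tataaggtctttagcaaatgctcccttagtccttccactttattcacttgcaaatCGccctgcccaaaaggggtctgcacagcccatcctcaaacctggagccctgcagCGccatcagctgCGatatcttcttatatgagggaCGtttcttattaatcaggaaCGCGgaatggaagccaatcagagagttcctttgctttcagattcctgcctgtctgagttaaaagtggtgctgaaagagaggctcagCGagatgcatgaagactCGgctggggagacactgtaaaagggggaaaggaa
Pcdh20: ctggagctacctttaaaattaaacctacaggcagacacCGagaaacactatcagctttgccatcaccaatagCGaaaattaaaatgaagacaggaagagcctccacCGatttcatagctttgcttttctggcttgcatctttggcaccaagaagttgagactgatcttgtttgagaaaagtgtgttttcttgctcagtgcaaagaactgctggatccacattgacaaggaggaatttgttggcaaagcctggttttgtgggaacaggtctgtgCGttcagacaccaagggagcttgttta
Pcdh9: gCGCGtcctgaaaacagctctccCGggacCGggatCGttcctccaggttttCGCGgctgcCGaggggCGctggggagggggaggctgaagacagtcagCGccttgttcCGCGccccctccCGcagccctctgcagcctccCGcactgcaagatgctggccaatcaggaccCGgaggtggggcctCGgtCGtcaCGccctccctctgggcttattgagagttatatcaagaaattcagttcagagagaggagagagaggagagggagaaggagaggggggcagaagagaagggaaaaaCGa
They hold 12, 8, 4 and 19 CpG sites, while 71.9%, 80.8%, 92.1% and 52.9% of the tested genes with a window held at least as many. Over 22 members with a window the median was 13 CpG sites, beside 22 over 11014 tested genes. With 1 window per gene, the 5 lower members with a window had a median of 12, the 3 higher ones 7 and the 14 not called 18. Cdh7 has windows with 18, 19 and 4 CpG sites, and taking the one with 4 would lower the first median. The start of the Pcdh15 window lies 723 kb inside the counted gene. Differences between these small sets were not tested. The letters CCAAT, on either strand, occurred in each of the 4 windows shown, in 7 of the 8 called members with a window, in 15 of all 22 (68.2%) and in 42.4% of the tested genes. This motif was looked for after the sequences had been seen, it was the only one counted apart from CpG, and a match is a description of letters only.

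The other type II cadherins gave 1 more call. Cdh7, found in neurons of several brain regions (chr1:111878904-112036734, plus strand), had 119.9, 111, 108 and 100.4 in wild-type and 79.2, 85.0, 63.8 and 79.8 in Mbd2-/-. No Mbd2-/- library reached the lowest wild-type one, and the mean was 29.9% lower (log2 fold change -0.51 ± 0.12 SE, adjusted p = 0.00609). Its neighbours Cdh20 (-0.08, -0.23 to 0.07) and Cdh19 (0.07, -0.14 to 0.29), given as log2 fold change and 95% interval, were not called. Cdh8 was slightly lower in every Mbd2-/- library, with 1058, 1073, 1048 and 1117 against 1008, 988, 912 and 1009, and missed the threshold (log2 fold change -0.13, adjusted p = 0.0921). Cdh11, the most abundant type II member per length, had 1226, 1247, 1176 and 1247 in wild-type and 1217, 1194, 1055 and 1244 in Mbd2-/- (log2 fold change -0.06, interval -0.18 to 0.07, adjusted p = 0.519). Cdh22 and Cdh24 were not called either (-0.19 and -0.03). Cdh5, the cadherin of endothelial junctions, had 163, 184, 164 and 168 against 159.6, 158, 131 and 163. It counts among the members without overlap only because the highest Mbd2-/- library lay 0.0086 normalized counts, less than 1 read, under the lowest wild-type one, and it was not called (log2 fold change -0.15, adjusted p = 0.261), while the median over the 9 endothelium markers was 0.17 on the log2 scale. In all, 2 of the 13 type II members were called lower and 1 higher (23.1% called, beside 22.0% of all genes), with 11 negative (84.6%, beside 50.0%) and a median of -0.08. Of the tested genes within the members' interquartile range of transcript lengths, 66.1% were negative, with a median of -0.07.

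Of the 5 type I cadherins 2 were called, both higher and both rare (40.0%, beside 12.0% of all genes called higher), while the other three were negative. DESeq2 called none of the 5, with 2 at an unadjusted p under 0.05, and edgeR called 1. Cdh15, M-cadherin, best known from muscle (chr8:125371866-125391297, plus strand), had 19.5, 21.8, 20.1 and 21.8 normalized counts in wild-type and 33.2, 35.7, 41.4 and 24.0 in Mbd2-/-. The genotypes did not overlap, with Mbd2-/- replicate 4 closest to wild-type (log2 fold change 0.64 ± 0.20 SE, adjusted p = 0.0296). Cdh3, P-cadherin (chr8:109034791-109080808, plus strand), had 21.0, 29.3, 23.7 and 16.5 and 37.0, 27.4, 38.3 and 34.6, and here Mbd2-/- replicate 2 lay below wild-type replicate 2 (log2 fold change 0.60 ± 0.21 SE, adjusted p = 0.0473). With DESeq2 on the recovered reads Cdh15 had an adjusted p of 0.0576 and Cdh3 of 0.0954, with edgeR Cdh3 had 0.0547, and limma kept Cdh15 in 1 and Cdh3 in 3 of the 8 fits that left out a library. Cdh15 was called only where Mbd2-/- replicate 4 was the one left out, and its adjusted p otherwise lay between 0.0525 and 0.0818, while Cdh3 reached 0.154 without wild-type replicate 4. Cdh3 also missed the threshold with no filter on low counts (adjusted p = 0.0603), with scaling by library totals (0.0532) and with the replicate number as a block (0.0594), all in limma.

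Cdh2, N-cadherin, the type I member of neuronal and synaptic junctions with most RNA in these samples, had 1133, 1281, 1201 and 1201 in wild-type and 1176, 1123, 1085 and 1114 in Mbd2-/-. The genotypes overlapped, and the log2 fold change of -0.10 (interval -0.22 to 0.02, adjusted p = 0.220) did not pass the test. Cdh4, R-cadherin, had 163, 196, 165 and 191 and 181, 165, 171 and 146, which overlapped, and was not called (-0.11, interval -0.31 to 0.10, adjusted p = 0.451). Cdh1, E-cadherin of epithelia, had 19.5, 22.6, 23.7 and 22.8 and 8.94, 21.9, 11.2 and 15.4, and Mbd2-/- replicate 2 was level with wild-type. Its log2 fold change of -0.66 was the most negative of the tested members, yet it was not called (adjusted p = 0.0809) except without Mbd2-/- replicate 2 (adjusted p = 0.0344) or 4 (adjusted p = 0.0492).

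Cdh23 and Pcdh15 were both lower. Together they form the tip links that open the transduction channels of hair cells, and both are long genes on chromosome 10, at chr10:59765496-60159238 and chr10:72562090-74112482 (mm9), with 62 tested genes in the 14.3 Mb they span. Cdh23 had 57.0, 60.2, 62.0 and 63.7 in wild-type and 51.1, 39.3, 41.4 and 36.5 in Mbd2-/-. All Mbd2-/- libraries were below wild-type, replicate 1 the least (log2 fold change -0.53 ± 0.14 SE, adjusted p = 0.0157). Pcdh15 had 157, 156, 150.4 and 170.0 and 81.7, 105, 123 and 147, which did not overlap although Mbd2-/- replicate 4 came close to wild-type (log2 fold change -0.50 ± 0.14 SE, adjusted p = 0.0180). Cdh23 missed the threshold without wild-type replicate 4 (adjusted p = 0.0541) and with the length trend removed (-0.38, adjusted p = 0.108), and Pcdh15 without wild-type replicate 4 (adjusted p = 0.0587) and without Mbd2-/- replicate 1 (adjusted p = 0.0581) or 2 (adjusted p = 0.0578) and without trend and robust moderation (adjusted p = 0.0666). Exons of Pcdh15 overlap an annotated pseudogene of the same name on the same strand, so its count is uncertain to that extent. Exons of Cdh4, Cdh8, Cdh24 and Pcdh19 also overlap other annotated genes, and whether reads were counted by strand was not given in the sources used here.

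Cdh13, T-cadherin, which is anchored in the membrane by a lipid and lacks the tail that binds catenins (chr8:120807633-121848821, plus strand), was also lower, with 526, 539, 498 and 496 in wild-type and 484, 439.9, 408 and 414 in Mbd2-/-. The groups did not overlap, and the mean was 15.2% lower (log2 fold change -0.24 ± 0.070 SE, adjusted p = 0.0218). Its limma call was lost without wild-type replicate 1 (adjusted p = 0.0651), wild-type replicate 2 (0.0688) or Mbd2-/- replicate 2 (0.0528), without trend and robust moderation (0.0501), and with the length trend removed (-0.18, adjusted p = 0.0832). Cdh26 was too rare for a precise value, with 14.7 ± 5.05 and 13.5 ± 3.02 normalized counts (log2 fold change -0.07, interval -0.70 to 0.57).

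The delta-protocadherins, among them the abundant Pcdh9 and Pcdh1, had lower medians in 3 of the 4 Mbd2-/- libraries. Of the 4 delta-1 members Pcdh9 and Pcdh1 were called lower and all 4 were negative (median -0.19), beside 10.0% of all tested genes called lower and 50.0% negative, and 14.6% and 66.1% of those within the members' range of lengths. With the length trend removed 1 of the 4, Pcdh9, was called and 3 were negative. Pcdh1 (chromosome 18, minus strand) had 3237, 2879, 3133 and 3069 normalized counts in wild-type and 2647, 2601, 2689 and 2541 in Mbd2-/-, which did not overlap, with a mean 14.9% lower (log2 fold change -0.23 ± 0.050 SE, adjusted p = 0.00417). It lies 32.4 Mb from Mbd2 on the same chromosome, and its limma call was lost only with the length trend removed (-0.15, adjusted p = 0.0606). Pcdh7 had 1383, 1325, 1361 and 1396 and 1229.7, 1192, 1146 and 1366, where Mbd2-/- replicate 4 alone reached the wild-type range (log2 fold change -0.15, adjusted p = 0.0772). Pcdh11x was not called (-0.04, interval -0.32 to 0.24).

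None of the 5 delta-2 members, Pcdh8, Pcdh10, Pcdh17, Pcdh18 and Pcdh19, was called by limma, edgeR or DESeq2, beside 22.0%, 21.9% and 21.3% of all tested genes. In each tool 1 of the 5 had an unadjusted p under 0.05. That member was Pcdh19, an X-linked protocadherin, with 1987, 1812, 1888 and 1956 in wild-type and 1576, 1649.8, 1621 and 1972 in Mbd2-/-. Its replicates 1 to 3 without Mbd2 were below all wild-type libraries and replicate 4 was among them (log2 fold change -0.17, adjusted p = 0.0766). Pcdh17 had 1859, 1911, 1958 and 1977 and 1631, 1805, 1589 and 2051, and its replicates 1 to 3 without Mbd2 were likewise below wild-type while replicate 4 was above it (-0.13, adjusted p = 0.191). Pcdh8, an activity-induced protocadherin of synapses, had 1340.0, 1299, 1491 and 1417 and 1234, 1270.2, 1495 and 1245, and there replicate 3 was the highest of the Mbd2-/- libraries (-0.08, interval -0.23 to 0.06). Pcdh10 had 1680.2, 1729.7, 1701 and 1684 and 1654, 1543, 1484 and 1884, which overlapped through Mbd2-/- replicate 4 (-0.06, interval -0.19 to 0.08, adjusted p = 0.580). Pcdh18 (48.9 ± 11.7 and 48.6 ± 5.55) gave a log2 fold change of 0.02. Without Mbd2-/- replicate 4 limma called 3 of the 5 delta-2 members lower, Pcdh10, Pcdh17 and Pcdh19 (60.0%, beside 17.6% of all genes). Pcdh12, the protocadherin of vascular endothelium, had 6 to 15 reads in a library and was not called (0.35, interval -0.36 to 1.06).

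Mbd2-/- replicate 4 stood apart from the other Mbd2-/- libraries, in these genes and over all genes. Over genes with at least 50 reads in a pair of libraries, the mean squared difference within the pair was 8.96 to 15.4 times what counting error gives in pairs with replicate 4 and 3.67 to 5.96 times in the other Mbd2-/- pairs. The median log2 difference of the members from their wild-type means was -0.10, -0.11 and -0.19 in Mbd2-/- replicates 1 to 3 and -0.03 in replicate 4, and it lay between -0.04 and 0.03 in wild-type libraries. For the 9 delta-protocadherins it was -0.22, -0.14 and -0.24 in replicates 1 to 3 and 0.05 in replicate 4. Replicate 4 was the highest Mbd2-/- library in 18 of 33 members (54.5%), beside 32.7% of all tested genes, and among those with a negative log2 fold change in 15 of 26 (57.7%), beside 42.1%. Its summed normalized count over the members, 23593, was in the wild-type range of 23554 to 24036, and the other Mbd2-/- libraries had 21019 to 21917. It also differed in markers, with 113218 normalized counts of the astrocyte transporter gene Slc1a2, beside 88802 to 96559 in the other Mbd2-/- libraries, and 27304 of the choroid plexus gene Ttr, beside 32557 to 34941, and the part of these in its member values was not tested. Without it, 14 members were called lower and 4 higher by limma, beside 17.6% and 17.9% of all genes, and the calls added were Cdh1, Cdh6, Cdh8, Pcdh7, Pcdh10, Pcdh17 and Pcdh19. Among the 11 called with all libraries, all were called without it too.

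**Figure D4:**
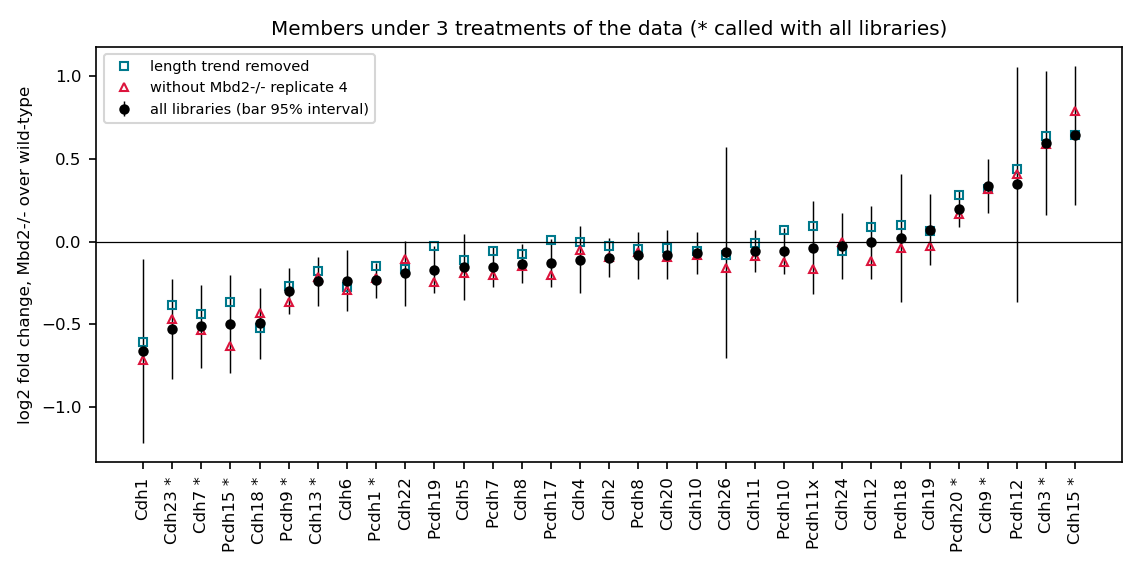
Log2 fold change of each tested member, Mbd2-/- over wild-type, with all libraries (black, 95% interval), with the length trend removed (squares) and without Mbd2-/- replicate 4 (triangles), in the order of the black points. Cdh18, Cdh7, Pcdh9 and Cdh9 keep their distance from 0 in all 3, while Pcdh19, Pcdh17 and Pcdh7 lie near 0 as squares and lower as triangles.

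Cdh18, Cdh7, Pcdh9 and Cdh9 were called in all 13 alternative treatments of the 8 libraries and in all 8 fits that left out a library. Over those fits the log2 fold change ran from -0.56 to -0.43 for Cdh18 and for Cdh7, from -0.36 to -0.24 for Pcdh9 and from 0.31 to 0.40 for Cdh9.

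The clustered protocadherins, which lie in the alpha, beta and gamma gene clusters, were set beside the members as the nearest relatives. Of their 54 tested genes 5 were called by limma, each of them lower, which is 9.26%, beside 10.0% of all tested genes called lower and 22.0% called in either direction, with 85.2% negative and a median of -0.19. The difference between these families was not tested. Variable first exons of the alpha and of the gamma cluster are spliced to last exons that their cluster shares, so reads there can be split between genes in ways not stated.

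Among the genes that work with cadherins, those of the catenins, which bind cadherin tails, were not called by limma, edgeR or DESeq2, and several linkers of the junction were lower. Of the catenin genes Ctnnd1, p120-catenin, alone had an unadjusted p under 0.05 (log2 fold change -0.15, adjusted p = 0.0599 in limma), and it was called without Mbd2-/- replicate 4. Of 27 genes for catenins, junction linkers, nectins and delta-protocadherin partners, 5 were called lower and 2 higher (18.5% and 7.41%, beside 10.0% and 12.0% of all tested genes, median -0.07). Ctnnb1, beta-catenin, had 7072 ± 257 normalized counts in wild-type and 7102 ± 143 in Mbd2-/- (SD, n = 4), with a 95% interval of the log2 fold change of -0.09 to 0.10. Ctnna2 and Ctnnd2, the neuronal alpha- and delta-catenins, had log2 fold changes of 0.04 (interval -0.06 to 0.15) and 0.02 (-0.08 to 0.12). Lower were 3 linkers of the junction to actin and microtubules, Vcl (vinculin, 675 ± 4.85 and 556 ± 54.4, log2 fold change -0.29, adjusted p = 0.00843), Mllt4 (afadin, -0.28, adjusted p = 0.00690) and Plekha7 (-0.27, adjusted p = 0.0298). Nectin1, an adhesion molecule that binds afadin, was lower as well (-0.25, adjusted p = 0.00927). Vcl and Mllt4 kept their limma calls in all 8 fits that left out a library and Nectin1 did too, whereas Plekha7 lost its call without wild-type replicate 2, 3 or 4 or Mbd2-/- replicate 1 (adjusted p 0.0541 to 0.104) and without trend and robust moderation (0.0553). With the length trend removed Nectin1 (log2 fold change -0.17, adjusted p = 0.0665) and Plekha7 (-0.19, adjusted p = 0.133) were not called by limma.

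The called delta-protocadherin partners differed in direction. Cyfip2 and Brk1 are subunits of the WAVE complex, which drives actin branching, and Cyfip2 was lower (14233 ± 128 and 12911 ± 369, log2 fold change -0.14, adjusted p = 0.0206) whereas Brk1 was higher (1517 ± 82.7 and 1808 ± 82.3, 0.25, adjusted p = 0.00489). Ppp1ca, a catalytic subunit of protein phosphatase 1, which binds Pcdh7, was higher (0.30, adjusted p = 0.00418). Neither Brk1 nor Ppp1ca was called with the length trend removed (adjusted p = 0.864 and 0.118), and Cyfip2 lost its limma call there (0.614), without trend and robust moderation (0.0773) and without any of the 4 wild-type libraries or Mbd2-/- replicate 2 (0.0504 to 0.0645). Without Mbd2-/- replicate 4 the partner genes called lower rose to 11 of 27 (40.7%, while the share of all genes called lower went from 10.0% to 17.6%). Without wild-type replicates 2, 3 or 4 in turn the partner genes called lower fell to 3, while the share of all genes fell to 7.27%, 6.05% and 6.22%.

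Among the other genes of the cadherin superfamily the calls were mostly lower. Of the 24 listed, 20 were counted and 16 tested, with 6 called lower and 1 higher (37.5% and 6.25%, beside 10.0% and 12.0% of all tested genes, median -0.16). Lower were all 3 calsyntenins, synaptic cadherins that bind kinesin, with Clstn1 at 12919 ± 229 and 10642 ± 474 (log2 fold change -0.28, adjusted p = 5.05e-04), Clstn3 at -0.28 (adjusted p = 0.00277) and Clstn2 at -0.20 (adjusted p = 0.0162). The planar polarity cadherins Celsr3 (-0.45, adjusted p = 2.02e-04) and Celsr2 (-0.30, adjusted p = 5.97e-04) were lower, and Celsr1 was not called (0.06). Ret, a receptor kinase with cadherin domains, was lower (129.9 ± 4.04 and 90.0 ± 10.4, -0.53, adjusted p = 0.00261). Fat2, a giant cadherin, was rare and higher (8.63 ± 1.95 and 18.5 ± 4.80, 1.01, adjusted p = 0.0153), and DESeq2 gave it no adjusted p. Clstn2 lost its limma call without wild-type replicate 3 (adjusted p = 0.0562) or Mbd2-/- replicate 1 (0.0612) and without trend and robust moderation (0.0566), and the other 5 lower genes kept theirs. With the length trend removed the lower calls were these same 6 genes, but Celsr2 then had a log2 fold change of -0.15 and passed narrowly (adjusted p = 0.0494), and that of Celsr3 was -0.30.

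**Figure D5:**
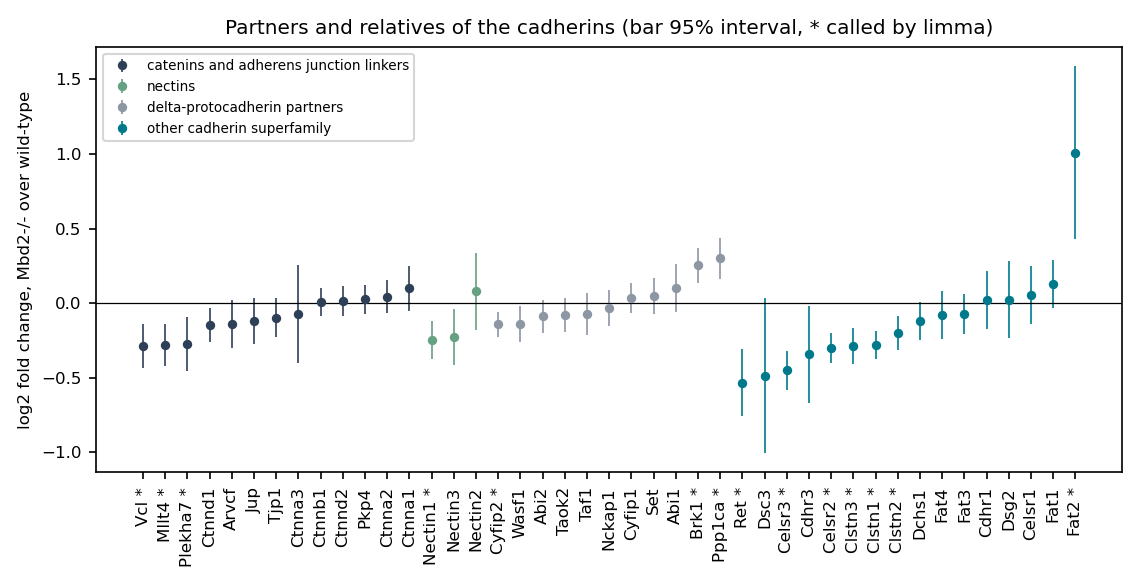
Log2 fold change with its 95% interval for each tested partner and relative, coloured by list, in rising order within a list (asterisk called by limma). Ctnnb1, Ctnna2 and Ctnnd2 lie near 0, the calsyntenins with Celsr2, Celsr3 and Ret lie below it, and Fat2 lies highest.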

How the data were processed

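RNA from pooled hippocampi was depleted of ribosomal RNA and sequenced as 100 base pairs from both ends in 4 libraries per genotype. The authors removed duplicate reads, aligned to mm9 with STAR and compared genotypes with DESeq2, and the versions, the counting tool and its strand setting are not given in the sources used here. What the authors deposited for a library is a signal, the normalized count, with reads scaled by DESeq2 size factors. The deposited mean signal is the authors' mean over the 8 libraries. The log2 fold changes, the Wald score and the p-values that the authors deposited hold their own comparison and were not used. Dividing by the smallest value above 0 gave back whole reads for 100% of values, to within 0.01 of a read.

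Groups and replicate numbers came from the labels. The two-sided test was limma 3.58.1 in R 4.3.3 (trend and robust options on) of log2(normalized count + 1), for genes averaging 10 or more, with Benjamini-Hochberg adjustment over all 14504 tested genes at 0.05. The fold change on this scale understates that of rare genes. edgeR 4.0.16, which called 3172 genes, and DESeq2 1.42.0, which called 2970, were run on the recovered reads as alternatives, with other scalings, pseudocounts, filters, removal of a length trend, a replicate block and each library left out. Positions and transcript lengths came from GENCODE vM1 on mm9, matched for 94.2% of symbols, and RefSeq promoter windows from GRCm38.p6, matched to the mm9 sequence, with those of chromosome 18 not used. Counting error weighs most on members with few reads. Each library is a pool of 2 mice, so the p-values set the genotype difference against the spread between pools, not between single mice.

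All members are named, with full values for called members and for the 2 most abundant per length of each subfamily, as are the called partners and relatives. The members, the partner lists and the marker lists were chosen with earlier results of these data known. A short list of partner genes is not reported here.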

Additional observations from a re-analysis of the deposited data

Results flagged for a closer look

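In 5 of the 68 groups of 4 libraries examined (each tested member and Mbd2 in each genotype), 1 library lay far from the other three, and about 1 in 20 groups would be picked out in this way by chance. Cdh22 had 223.9 normalized counts in Mbd2-/- replicate 4, while the other Mbd2-/- libraries had 280.93 to 286.9. Cdh5 had 130.7 in Mbd2-/- replicate 3, beside 158.21 to 163.36. Pcdh8 had 1495.07 in Mbd2-/- replicate 3, above the 1233.52 to 1270.24 of the others. Pcdh18 had 31.48 in wild-type replicate 1, beside 52.87 to 56.43, and without that library its log2 fold change turned from 0.02 to -0.17, neither of which was called. Pcdh9 had 2297.23 in wild-type replicate 3, beside 2418.09 to 2440.54, and that lowest wild-type value was still above every Mbd2-/- library.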

How the results depend on the processing

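The count of members called lower stayed within 1.5 times the reported 7 under the alternatives, except without Mbd2-/- replicate 4, where it was 14 (5 to 14 over the fits that left out a library, beside 5.98% to 17.6% of all genes). The 4 members called higher became 2 with DESeq2 and 2 among members with a mean of at least 50. With a library left out they became 1 to 4, beside 8.07% to 17.9% of all genes called higher. The median log2 fold change of -0.10 became -0.043 with the length trend removed and ran from -0.14 to -0.07 with a library left out, while the 13 members without overlap became 7 with the length trend removed and 14 to 18 with a library left out (42.4% to 54.5%, beside 26.3% to 39.2% of all genes). Partner genes called lower, 5 as reported, were 3 without trend and robust moderation, 3 with the length trend removed and 3 to 11 with a library left out. The share of all genes called lower was 6.79% with the length trend removed and 5.98% to 17.6% with a library left out, beside 10.0% as reported. It is not given here for the fit without trend and robust moderation. The 2 partners called higher became 0 with the length trend removed, where 4 had an unadjusted p under 0.05, and edgeR and DESeq2 called 2. The 1 relative called higher, Fat2, became 0 with DESeq2, which gave it no adjusted p, 0 with a mean of at least 50, which left it out, and 2 with the length trend removed. The cause of these moves was not tested, apart from the filter, which leaves fewer genes.

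The sign changed only in members that were not called. Cdh12 had log2 fold changes of 0.0143 with edgeR, 0.0119 with DESeq2, 0.0033 with limma-voom and 0.0872 with the length trend removed, and Pcdh18 had -0.0515, -0.0393 and -0.0379 with the first 3. Cdh26 had 0.0854 with limma-voom, and with the length trend removed Pcdh10 had 0.0727, Pcdh11x 0.0944 and Pcdh17 0.0078. With a library left out the values ran from -0.1149 to 0.0698 for Cdh12, -0.0262 to 0.1207 for Cdh19, -0.0666 to 0.0279 for Cdh24, -0.3391 to 0.0789 for Cdh26, -0.1668 to 0.0531 for Pcdh11x and -0.1733 to 0.1009 for Pcdh18.

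The replicate numbers are not said to pair the libraries. Over all tested genes the deviations of same-numbered libraries correlated at -0.10, -0.06, 0.07 and 0.04. Values near 0 cannot show that same-numbered libraries were prepared apart, so whether they are paired stays unknown. With the number as a replicate block 7 members were called lower and 3 higher, Cdh3 being lost (adjusted p = 0.0594, limma). The share of all genes called in that fit is not given here, so these counts cannot be set against all genes.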
